A study of Mus musculus with 22 samples.

Results

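The genes described here encode apolipoproteins, the protein coats of the particles that carry fat and cholesterol in blood, and the transfer protein that loads fat onto the largest of them. They are Apoa1, Apoa2, Apoa4, Apoa5, Apob, Apoc2, Apoc3, Apoe, Apom and Mttp. The rule takes them by gene symbol and uses no measured value, although the list was drawn up with earlier results of these data known. Each of the 10 symbols stood on 1 row of the array table, so 10 of the 24011 genes with 1 symbol are members.

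Hepatocytes build very low density lipoprotein (VLDL) around apolipoprotein B, and microsomal triglyceride transfer protein, the product of Mttp, adds lipid to it in the endoplasmic reticulum. Apolipoproteins A-I and A-II form the coat of high density lipoprotein (HDL), and the smaller apolipoproteins of the A, C and E classes move between particles in plasma and set how fast triglyceride is hydrolysed and how fast remnants are taken up. Bile acids and lipoproteins are linked in the liver, because bile acids are made from cholesterol and bile acid receptors act on lipid genes.

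Liver RNA of 22 female C57BL/6J mice was measured on Affymetrix MoGene arrays, 1 array for each mouse, at the age of 12 weeks. The wild type groups were WT_chow (n = 5, regular chow) and WT_UDCA (n = 6). The groups lacking Cyp2c70 were KO_chow (n = 5, regular chow) and KO_UDCA (n = 6). Cyp2c70 encodes the cytochrome P450 behind the muricholic acids of mouse bile. The UDCA diet held 0.1% ursodeoxycholic acid, a hydrophilic bile acid, and was fed for 7 weeks after a start at 5 weeks of age. The sources used here do not say how the knockout was made or which exons it lacks. Replicate numbers follow the record order of the mice within each group and pair no mice across groups.

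Array medians lay between 4.84 and 4.96 on the log2 scale, and the brightest gene of an array between 13.08 and 13.33. The targeted gene Cyp2c70 ran from 11.22 to 11.62 in wild type mice of both diets and from 10.27 to 10.83 in knockout mice, with no overlap between the genotypes and with signal left in the knockout. Of 12 hepatocyte markers measured, 0 lay below the array median in every array, and their summed intensity ran from 58867 to 61360 in WT_chow and from 57602 to 61183 in KO_chow. KO_chow replicates 2 and 5 stood apart from the rest, at 53.4 and 51.9 on the first principal component (26.7% of the variance), where the other KO_chow mice ran from 15.7 to 32.5 and all other mice from -13.1 to -0.66. Each member call and each list count in the comparisons that use KO_chow is therefore also given without them.

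In KO_chow against WT_chow, 3 of the 10 genes passed the test, as did 13.7% of all 24011 genes. Apoa4 was about 2-fold higher in KO_chow than in WT_chow, Mttp and Apom were about 1.3-fold and 1.2-fold lower, and the other 7 genes, Apob, Apoa1 and Apoe among them, did not pass the test. The Mttp and Apom calls ended without KO_chow replicate 2 or without replicate 5, and the changes were -0.21 (adjusted p = 0.285) and -0.17 (adjusted p = 0.31) without both. In KO_UDCA the means of all 3 genes lay nearer to the wild type level. From KO_chow to KO_UDCA, 3 of the 10 genes and 2701 of all 24011 genes passed the test. Without both mice these counts were 0 and 673. The plot of all values by mouse shows how narrow most groups were: the median SD of a member was 0.077 log2 units in WT_chow and 0.102 in KO_chow, against 0.168 and 0.193 over all genes. The SDs were not matched for brightness, and the members lay between 8.24 and 12.69, above the array medians of 4.84 to 4.96.

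**Figure D1:**
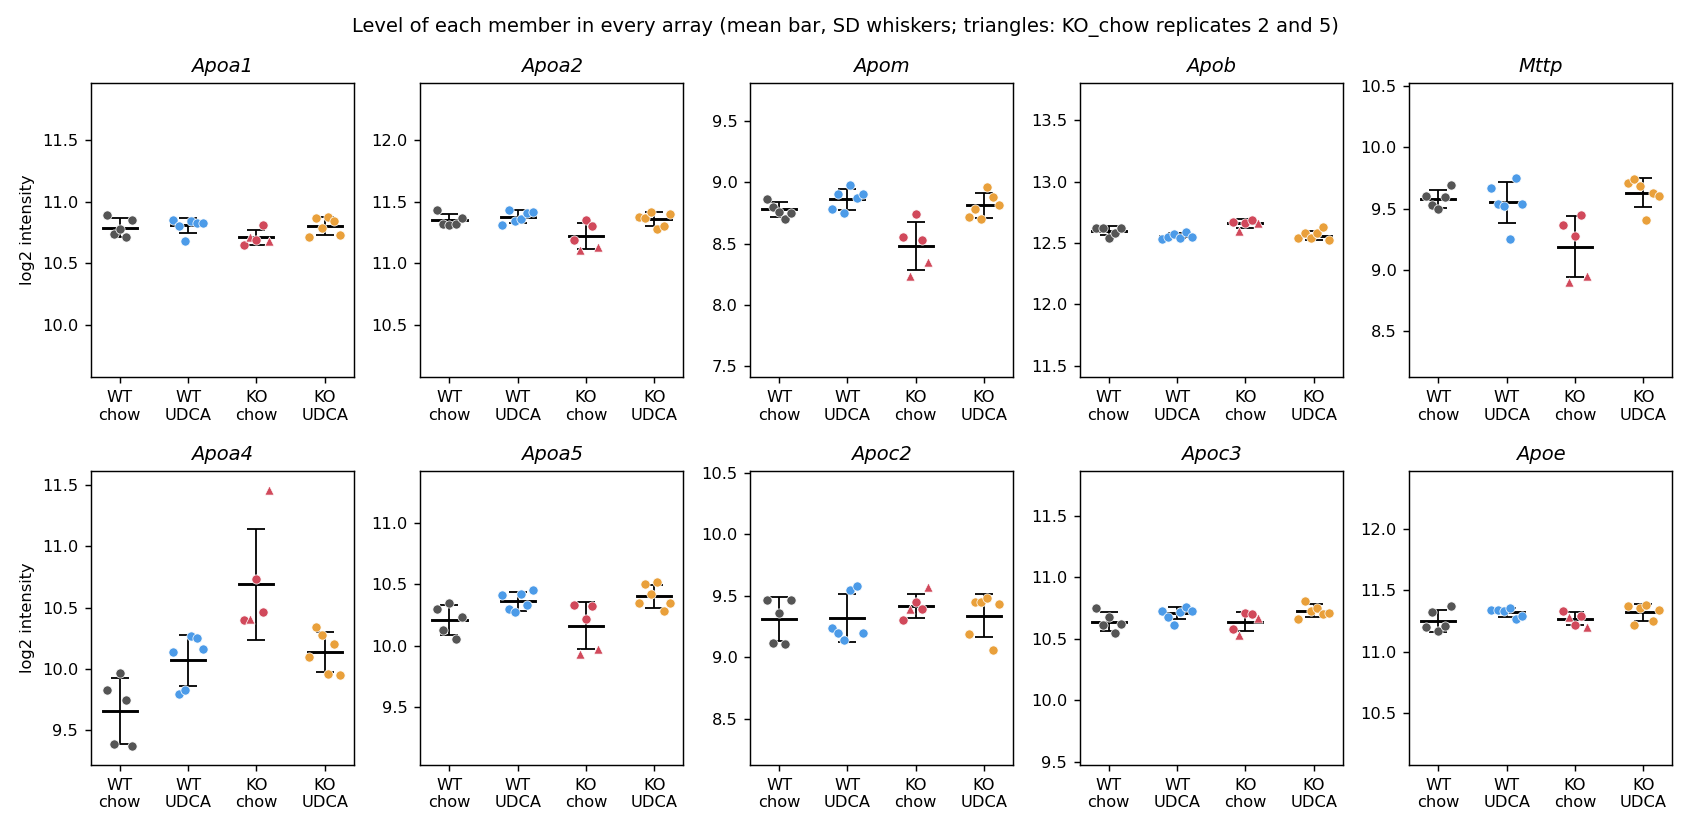
Log2 intensity (vertical axis) of each of the 10 genes in every mouse of the 4 groups (horizontal axis). Bars are group means, whiskers are SDs, triangles are KO_chow replicates 2 and 5, and every panel spans the same range of log2 units. Apoa4 in KO_chow lies between 10.40 and 11.46, above every WT_chow mouse (9.37 to 9.97), whereas Apoc3 and Apoe overlap in all groups.

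Changes are differences of mean log2 intensity from a limma fit to all 22 arrays, called at an adjusted p below 0.05 with Benjamini-Hochberg adjustment over all 24011 genes. Intervals are 95% intervals from the same fit. In KO_chow against WT_chow, 3 of the 10 genes were called, 1 higher and 2 lower, where 13.7% of all genes were called (7.69% higher and 6.03% lower). The groups did not overlap for 2 of the 10 (Apoa4 and Mttp), against 9.43% of all genes. The median change of the 10 genes was -0.03, and that of all genes was -0.037.

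Apoa4 encodes apolipoprotein A-IV, a lipid-binding protein of triglyceride-rich particles and HDL that is made in intestine and, in rodents, also in liver. It measured 9.83, 9.39, 9.97, 9.75 and 9.37 in WT_chow and 10.40, 10.41, 10.73, 10.46 and 11.46 in KO_chow, in the order of the replicates. Every KO_chow mouse lay above every WT_chow mouse, and KO_chow replicate 5 lay furthest out. The rise was 1.03 log2 units (SE 0.168, interval 0.69 to 1.38), or 2.05-fold (limma adjusted p = 0.000205). The call held in all 21 alternative fits, with changes from 0.77 to 1.91. Without KO_chow replicates 2 and 5 the change was 0.87 (adjusted p = 0.000805).

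Under UDCA the Apoa4 levels of the 2 genotypes met. The 6 WT_UDCA mice ran from 9.80 to 10.27 with a median of 10.15, and the 6 KO_UDCA mice from 9.95 to 10.34 with a median of 10.15. The groups on UDCA thus covered nearly the same range, above the WT_chow median and below every KO_chow mouse. Apoa4 fell by 0.56 from KO_chow to KO_UDCA (SE 0.161, interval -0.89 to -0.22), which is 1.47-fold (limma adjusted p = 0.0261), and WT_UDCA lay 0.41 above WT_chow without passing the test (interval 0.08 to 0.75, unadjusted p = 0.017, adjusted p = 0.823). The difference between these diet effects was itself tested as the genotype by diet interaction and was -0.97 (SE 0.227, interval -1.44 to -0.50, limma adjusted p = 0.0234). Apoa4 was the 1 member of the 10 called there, where 2.67% of all genes were called.

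The order of the Apoa4 group means was WT_chow (9.66 ± 0.269, SD, n = 5), WT_UDCA (10.07 ± 0.207, n = 6), KO_UDCA (10.14 ± 0.163, n = 6) and KO_chow (10.69 ± 0.451, n = 5). The neighbours WT_UDCA and KO_UDCA differed by 0.07 (interval -0.25 to 0.38), less than the SD within either group. KO_UDCA lay 0.48 above WT_chow (interval 0.15 to 0.81, unadjusted p = 0.00672, adjusted p = 0.659), and its lowest mouse, at 9.95, lay below the highest WT_chow mouse, at 9.97.

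The fall of Apoa4 under UDCA was less firm than its rise on chow. It lost its call without KO_chow replicate 3 (-0.55, adjusted p = 0.0515), without KO_chow replicate 5 (-0.36, adjusted p = 0.0949), without KO_UDCA replicate 4 (-0.52, adjusted p = 0.0535) and without KO_UDCA replicate 6 (-0.52, adjusted p = 0.0601). Leaving out KO_chow replicates 2 and 5 together gave -0.39 (adjusted p = 0.167), and in a fit to only the groups compared the adjusted p was 0.0719. Among the 32 alternative fits of the interaction, the call was lost in 1, the fit to title numbers 1 to 15 (-0.52, adjusted p = 0.386).

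Apoa4 stands in a cluster with Apoa1, Apoc3 and Apoa5 on chromosome 9, which spans 43.3 kb in GRCm38.p6, with Apoa4 at chr9:46240844-46243458. Between Apoc3 and Apoa4 lie 5.2 kb, and between Apoa4 and Apoa5 25.1 kb. The neighbours did not pass the test on chow: Apoa1 changed by -0.09 (interval -0.22 to 0.05), Apoc3 by -0.01 (-0.14 to 0.13) and Apoa5 by -0.05 (-0.24 to 0.13). As a description, with no test because Apoa4 was picked after the values were seen, the log2 ratio of Apoa4 to a neighbour within the same array was higher in KO_chow than in WT_chow by 1.12 for Apoa1, 1.04 for Apoc3 and 1.09 for Apoa5. From KO_chow to KO_UDCA the 3 ratios differed by -0.65, -0.65 and -0.80. With KO_chow replicates 2 and 5 left out, the differences on chow were 0.95, 0.85 and 0.79 and those under UDCA -0.48, -0.46 and -0.50. The 3 ratios share the Apoa4 values.

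**Figure D2:**
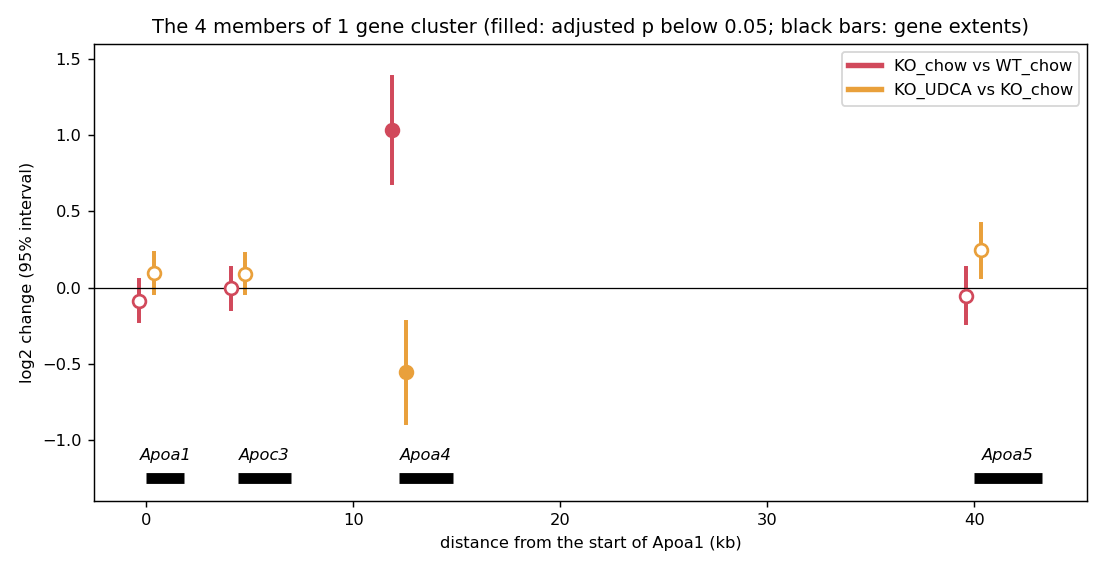
Log2 change with its 95% interval (vertical axis) for the 4 clustered genes at their distance from the start of Apoa1 in kb (horizontal axis), for KO_chow against WT_chow (red) and KO_UDCA against KO_chow (orange). Filled points passed the test, black bars show the extent of each gene. Apoa4 is at 1.03 and -0.56, and the intervals of Apoa1 and Apoc3 include 0 in both comparisons.

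The 250 bases before the start of Apoa4, chr9:46240594-46240843 on the plus strand, are shown because it is the member with the largest change and its close neighbours did not pass the test. The sequence is from the RefSeq table of GRCm38.p6, and capitals mark the match to CAAAGNNCA.
Apoa4: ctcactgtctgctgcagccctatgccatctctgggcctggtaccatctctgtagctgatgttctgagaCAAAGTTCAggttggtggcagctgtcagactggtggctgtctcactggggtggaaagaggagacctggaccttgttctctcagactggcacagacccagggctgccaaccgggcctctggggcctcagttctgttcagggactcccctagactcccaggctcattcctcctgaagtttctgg
The match lies at -182 to -174 from the start of transcription. CAAAGNNCA is a loose form of CAAAGTCCA and CAAAGGTCA, sequences of the kind bound by the liver nuclear receptor HNF4A, and 5.49% of the 32851 windows of this length hold it on either strand. Windows were found for 9 of the 10 genes, and CAAAGNNCA was found in those of Apoa4 and Apob. The stricter CAAAGTCCA and CAAAGGTCA, held by 0.384% and 0.426% of all windows, were found in 0 of the 9. A match is a description of the letters, not a site.

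Mttp encodes the large subunit of microsomal triglyceride transfer protein, without which apolipoprotein B is not lipidated and VLDL is not secreted. It measured 9.60, 9.53, 9.50, 9.59 and 9.69 in WT_chow and 9.37, 8.90, 9.28, 9.45 and 8.95 in KO_chow. The groups did not overlap, and KO_chow replicates 2 and 5 were the lowest of all 22 arrays. Mttp fell by 0.39 (SE 0.107, interval -0.61 to -0.17), or 1.31-fold (limma adjusted p = 0.015). The call was lost without KO_chow replicate 2 (-0.32, adjusted p = 0.061), without KO_chow replicate 5 (-0.33, adjusted p = 0.0563) and when only these groups were fitted (adjusted p = 0.0576). With both mice left out the change was -0.21 (adjusted p = 0.285).

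In KO_UDCA, Mttp ran from 9.41 to 9.74 with a median of 9.65, close to WT_UDCA at 9.25 to 9.75 with a median of 9.54. It rose 1.35-fold from KO_chow to KO_UDCA, by 0.44 log2 units (SE 0.102, interval 0.22 to 0.65, limma adjusted p = 0.00692). The lowest KO_UDCA mouse, at 9.41, lay below the highest KO_chow mouse, at 9.45. Without KO_chow replicates 2 and 5 the change was 0.26 (adjusted p = 0.185). The interaction for Mttp was 0.47 (interval 0.17 to 0.77, adjusted p = 0.0822) and was called without KO_chow replicate 1 (adjusted p = 0.0482), without KO_chow replicate 4 (adjusted p = 0.0308) and with a filter on dim genes (adjusted p = 0.0411).

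Apob, the partner of Mttp and the structural protein of VLDL, did not pass the test in any comparison. It measured 12.62, 12.62, 12.54, 12.58 and 12.62 in WT_chow and 12.67, 12.60, 12.66, 12.69 and 12.66 in KO_chow, and ran from 12.53 to 12.59 in WT_UDCA and from 12.52 to 12.63 in KO_UDCA. All 22 values thus lay between 12.52 and 12.69, with KO_chow just above WT_UDCA and overlapping the other groups. The change on chow was 0.06 (interval -0.06 to 0.18, adjusted p = 0.589) and that from KO_chow to KO_UDCA was -0.09 (interval -0.20 to 0.02, adjusted p = 0.335). These levels lie near the brightest gene of each array, and whether the top of the scale narrowed the Apob values was not tested.

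Apom encodes apolipoprotein M, the HDL protein that carries sphingosine 1-phosphate. It measured 8.86, 8.80, 8.76, 8.70 and 8.75 in WT_chow and 8.55, 8.24, 8.74, 8.53 and 8.35 in KO_chow, with 1 KO_chow mouse, replicate 3, inside the WT_chow range and replicates 2 and 5 again the lowest. Apom fell 1.23-fold, by 0.30 log2 units (SE 0.085, interval -0.47 to -0.12, limma adjusted p = 0.021). The call was lost without WT_chow replicate 1 (-0.28, adjusted p = 0.0554), without KO_chow replicate 2 (-0.23, adjusted p = 0.0814), without KO_chow replicate 5 (-0.26, adjusted p = 0.0661) and with only these groups fitted (adjusted p = 0.0939). It was -0.17 without both KO_chow replicates 2 and 5 (adjusted p = 0.31). From KO_chow to KO_UDCA, where the mice ran from 8.70 to 8.96 with a median of 8.79, Apom rose 1.25-fold, by 0.33 (SE 0.082, interval 0.16 to 0.50, limma adjusted p = 0.0106). That change was 0.20 without KO_chow replicates 2 and 5 (adjusted p = 0.22), and with only these groups fitted the adjusted p was 0.0667. WT_UDCA ran from 8.75 to 8.98 with a median of 8.89.

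The windows before Mttp and Apom are shown because both genes were lower in the same KO_chow mice. They lie at chr3:138143419-138143668 and chr17:35131802-35132051, both read on the minus strand of GRCm38.p6, and capitals mark GGGTCA, a relative of the nuclear receptor half-site AGGTCA.
Mttp: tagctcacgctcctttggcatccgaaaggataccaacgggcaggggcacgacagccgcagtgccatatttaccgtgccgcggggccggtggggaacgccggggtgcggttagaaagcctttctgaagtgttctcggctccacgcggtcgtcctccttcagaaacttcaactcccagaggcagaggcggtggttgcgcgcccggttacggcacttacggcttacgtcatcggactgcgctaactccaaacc
Apom: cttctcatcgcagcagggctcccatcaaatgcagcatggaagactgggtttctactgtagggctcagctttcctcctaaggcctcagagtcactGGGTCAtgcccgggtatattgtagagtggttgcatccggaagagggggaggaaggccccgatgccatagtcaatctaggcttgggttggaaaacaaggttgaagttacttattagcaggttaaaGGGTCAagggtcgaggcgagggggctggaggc
The Apom window holds GGGTCA at -156 to -151 and at -32 to -27, and the Mttp window holds none of the 7 motifs searched. The Mttp window lies before the outermost start of the gene, and the sources used here do not say which start is used in liver. GGGTCA was found in windows of 3 members, Apom, Apoa5 and Apoe, and Apoa5 and Apoe did not pass the test. It is found in 11.6% of all windows and was added, with CAAAGNNCA, after the windows had been read. The other motifs were AGGTCA (14% of all windows), GTTAAT, a half-site of the liver factor HNF1 (6.43%), and TATAAA (12.4%). All were searched on both strands, and AGGTCA lies within CAAAGGTCA.

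Apoa1 and Apoa2, the main coat proteins of HDL, stayed within narrow ranges. Apoa1 measured 10.89, 10.74, 10.78, 10.71 and 10.85 in WT_chow and 10.65, 10.71, 10.69, 10.81 and 10.68 in KO_chow, and ran from 10.68 to 10.85 in WT_UDCA and from 10.71 to 10.88 in KO_UDCA. All 4 groups overlapped, and the adjusted p on chow was 0.466. Apoa2 measured 11.43, 11.32, 11.31, 11.32 and 11.37 in WT_chow and 11.19, 11.11, 11.35, 11.30 and 11.13 in KO_chow. KO_chow replicates 2 and 5 were the lowest of all arrays in Apoa2, as they were in Mttp and in Apom. The Apoa2 change on chow was -0.14 (interval -0.27 to 0.00, adjusted p = 0.2) and from KO_chow to KO_UDCA it was 0.14 (interval 0.01 to 0.27, adjusted p = 0.165). The latter was called on the scale of log2(intensity + 16) only (adjusted p = 0.048).

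Apoa5 encodes apolipoprotein A-V, a liver protein that promotes triglyceride hydrolysis by lipoprotein lipase. It measured 10.30, 10.13, 10.35, 10.05 and 10.23 in WT_chow and 10.33, 9.93, 10.22, 10.32 and 9.97 in KO_chow, with KO_chow replicates 2 and 5 once more the lowest of all arrays. WT_UDCA ran from 10.27 to 10.45 with a median of 10.37, and KO_UDCA from 10.28 to 10.52 with a median of 10.39. KO_UDCA lay 0.24 above KO_chow (SE 0.084, interval 0.07 to 0.42, adjusted p = 0.0615), just outside the threshold. It was called without KO_chow replicate 1 (adjusted p = 0.0305), without KO_chow replicate 4 (adjusted p = 0.0319) and in 3 other fits, and it was 0.11 without KO_chow replicates 2 and 5 (adjusted p = 0.576). Against WT_chow, KO_UDCA lay 0.19 higher (interval 0.02 to 0.37, unadjusted p = 0.0322, adjusted p = 0.858).

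Apoc2, the activator of lipoprotein lipase, and Apoc3, an inhibitor of it, did not separate the groups. Apoc2 ran from 9.11 to 9.47 in WT_chow, 9.14 to 9.58 in WT_UDCA, 9.30 to 9.57 in KO_chow and 9.06 to 9.48 in KO_UDCA, with a change on chow of 0.12 (interval -0.11 to 0.34, adjusted p = 0.564). Apoc3 ran from 10.55 to 10.75 in WT_chow, 10.61 to 10.76 in WT_UDCA, 10.53 to 10.71 in KO_chow and 10.66 to 10.81 in KO_UDCA. All 4 groups of either gene overlapped. Apoe, the ligand for remnant uptake, which hepatocytes and macrophages both make, measured 11.20, 11.32, 11.17, 11.21 and 11.37 in WT_chow and 11.33, 11.28, 11.22, 11.29 and 11.20 in KO_chow. Its change on chow was 0.01 (interval -0.12 to 0.14, adjusted p = 0.94). The signs of the Apoc3 and Apoe changes on chow turned in some rescaled fits and in some fits that left out mice, and neither is given a direction. The Apoa5 change on chow turned as well, from -0.05 with all mice to 0.08 without KO_chow replicates 2 and 5, and is given no direction either.

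**Figure D3:**
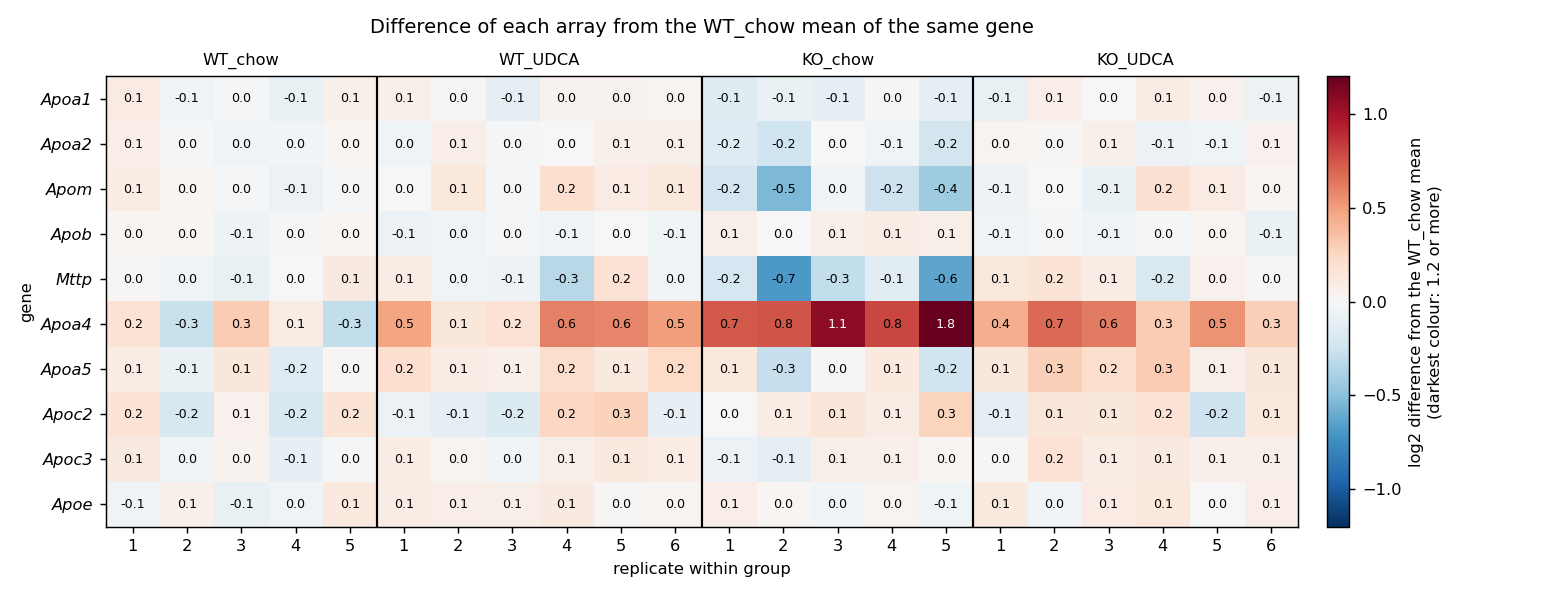
Difference of each mouse (columns, grouped by genotype and diet) from the WT_chow mean of the same gene (rows), in log2 units, with red above and blue below. KO_chow replicates 2 and 5 are the darkest blue in Mttp and Apom, and Apoa4 is red in every WT_UDCA, KO_chow and KO_UDCA mouse.

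From KO_chow to KO_UDCA, 3 of the 10 genes were called (Mttp and Apom higher, Apoa4 lower), where 11.2% of all genes were called (5.03% higher and 6.22% lower). The groups did not overlap for 1 of them, Apoa4, against 5.89% of all genes. The median change of the 10 genes was 0.093, and that of all genes 0.033. This comparison shares the KO_chow mice with the comparison on chow, so the opposite signs of the 2 comparisons are not independent. The differences between KO_UDCA and the wild type groups do not use them. Against WT_UDCA, 0 of the 10 genes were called by limma and 0 had an unadjusted p below 0.05 (0.0167% of all genes were called), with differences from -0.06 to 0.08. The widest interval among the 10 was that of Apoa4, from -0.25 to 0.38. Against WT_chow, 0 of 10 were called by limma and 2, Apoa4 and Apoa5, had an unadjusted p below 0.05 (0.025% of all genes called). In WT_UDCA against WT_chow, 0 of 10 were called by limma and 1, Apoa4, had an unadjusted p below 0.05. There 0 of all genes (0%) were called, 1338 had an unadjusted p below 0.05, and a fit to only these groups called 1.

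**Figure D4:**
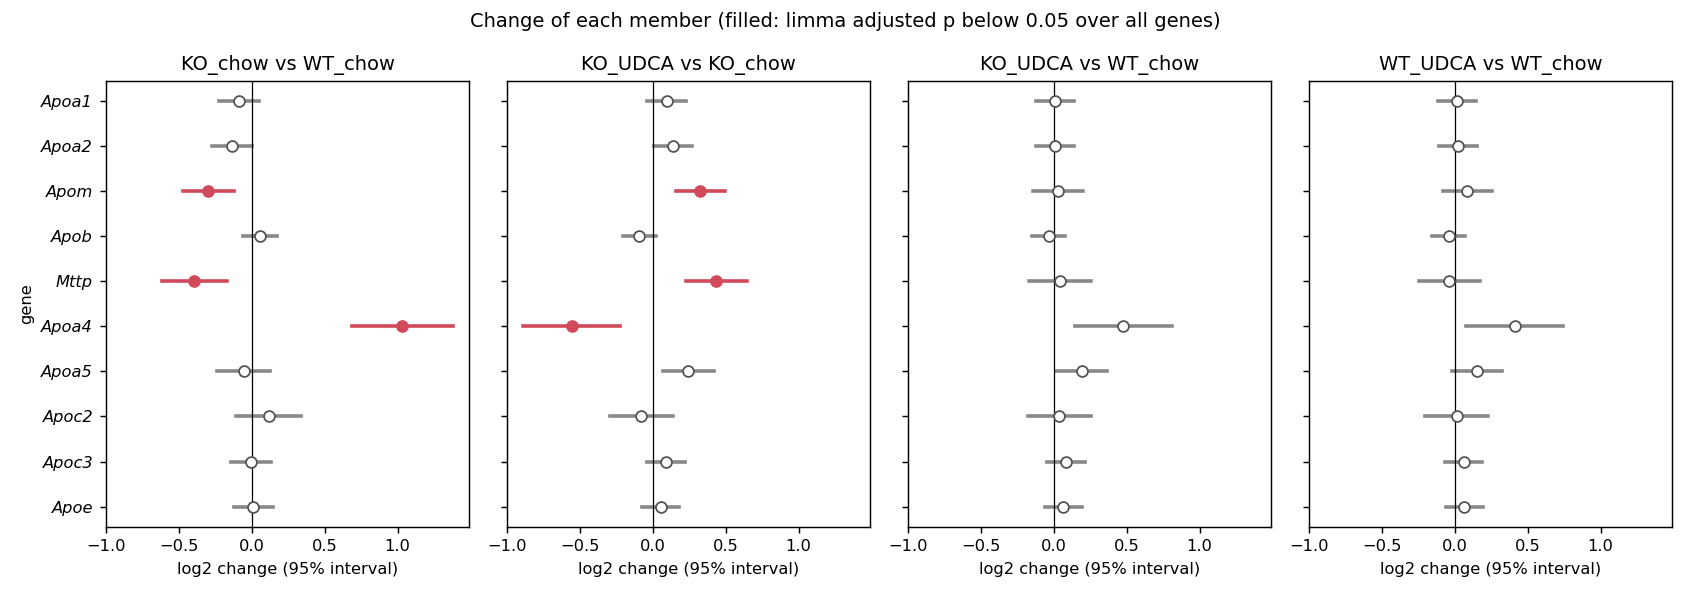
Log2 change of each of the 10 genes (points) with its 95% interval (lines) in 4 comparisons, with filled points for calls. KO_chow against WT_chow and KO_UDCA against KO_chow show the same 3 genes with opposite signs, and in the other comparisons shown Apoa4 lies furthest from 0, at 0.48 and 0.41.

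Markers of some cell types, but not of others, also differed on chow. Of all 24011 genes, 13.7% were called there, and 1089 genes were called without KO_chow replicates 2 and 5. Markers of monocyte-derived macrophages were higher in KO_chow in 10 of 11, with a summed intensity of 1612 to 5961 against 630 to 706 in WT_chow, and KO_chow replicates 2 and 5 held the highest sums. Cholangiocyte markers were higher in 9 of 9 (714 to 1383 against 296 to 318), and markers of stellate cells and fibroblasts in 7 of 10 (2213 to 2707 against 1164 to 1340). Kupffer cell markers were higher in 1 and lower in 5 of 9 (1529 to 1649 against 1827 to 2113), sinusoidal endothelial markers higher in 1 and lower in 1 of 8 (1866 to 2176 against 1926 to 2470), and pancreas markers in neither direction in 5 (137 to 169 against 138 to 168). Hepatocyte markers passed the test in 0 of 12. Of these, Hpd ran from 12.45 to 12.51 in WT_chow, near the level of Apob. Whether the top of the scale narrowed hepatocyte marker values was not tested. The part of these cell types in the falls of Mttp and Apom was not tested either. In whole liver fewer cells of a type and less RNA per cell cannot be told apart. Enterocyte markers, read because Apoa4 is also an intestinal gene, were higher in 2 (Slc5a1 and Vil1) and lower in 1 (Fabp2) of 10. Their summed intensity was 972 to 1166 in KO_chow and 1112 to 1337 in WT_chow. The enterocyte genes Vil1, Alpi, Lct and Sis lay below the array median in all 22 arrays. Slc5a1 ran from 3.65 to 4.36 in WT_chow and from 4.78 to 5.46 in KO_chow. Both genes that rose thus lay below or near the array medians of 4.84 to 4.96, and whether the list reads enterocytes in liver was not tested. The counts on chow without KO_chow replicates 2 and 5 were 9 higher for macrophages, 8 higher for cholangiocytes, 7 higher for stellate cells and fibroblasts, 1 higher and 4 lower for Kupffer cells, 1 higher for enterocytes and 0 for the other lists.

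From KO_chow to KO_UDCA markers of some cell types differed too. Of all 24011 genes, 11.2% were called there, and 673 genes were called without KO_chow replicates 2 and 5. Macrophage markers were lower in 10 of 11 (summed intensity 726 to 891 in KO_UDCA), cholangiocyte markers in 9 of 9 (313 to 470), and markers of stellate cells and fibroblasts in 6 of 10 (1192 to 1825). Kupffer cell markers were higher in 5 and lower in 1 of 9 (1594 to 2533), and sinusoidal endothelial markers higher in 2 and lower in 0 of 8 (1822 to 3226). Hepatocyte markers were higher in 1 of 12, Hpd (59846 to 63104), enterocyte markers lower in 2 of 10, Slc5a1 and Vil1 (1041 to 1169), and pancreas markers in neither direction in 5 (141 to 180). Without KO_chow replicates 2 and 5 the counts were 9 lower for macrophages, 7 lower for cholangiocytes, 6 lower for stellate cells and fibroblasts, 4 higher and 1 lower for Kupffer cells, 1 lower for enterocytes and 0 for the other lists. Their part in the changes of Mttp, Apom and Apoa4 under UDCA was not tested.

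Several pairs of members had like patterns over the mice. Pearson's r over the 22 arrays, given as a description because the mice share 4 groups, was 0.78 for Apoa2 with Apom and 0.77 for Apoa2 with Mttp. It was 0.74 for Apoa5 with Apoc3, 0.69 for Apom with Apoa5, 0.69 for Apoa1 with Apoc3 and 0.63 for Apom with Mttp. KO_chow replicates 2 and 5 were the lowest of all arrays in Apoa2, Apom, Mttp and Apoa5. No r given here was computed without them, so how far these mice carry the values was not tested. Apoa4 ran against Mttp (r = -0.59) and Apom (r = -0.53). Over all genes the patterns most like Mttp were those of Eci2 (r = 0.96), Slc25a16 (0.95) and Decr1 (0.95), of which Eci2 and Decr1 encode auxiliary enzymes of unsaturated fatty acid oxidation. Most like Apom were Afm (0.94), which encodes the plasma protein afamin, Vnn3 (0.91) and Sdc2 (0.91). Most like Apoa4 were Rhbdf1 (0.83), Eif4g2 (0.83) and Dgkd (0.81), and most like Apoa2 were Fgf1 (0.89), Gamt (0.87) and Mettl26 (0.87). Apoa5 was most like Urah (0.83), Foxa2 (0.82) and Rab17 (0.82). The highest r was lower for Apob (C1galt1, 0.82), Apoa1 (BC049352, 0.78), Apoe (Fbxo46, 0.78), Apoc2 (Aprt, 0.77) and Apoc3 (Serpina1d, 0.74).

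Lists of other genes of the pathway were read in the same fit. The counts without KO_chow replicates 2 and 5 were added after the values were seen. Over all 24011 genes, 13.7% were called on chow and 11.2% from KO_chow to KO_UDCA. Without these mice 1089 and 673 genes were called. Of 11 other apolipoprotein genes, 4 rose on chow and 0 fell, and 3 rose without KO_chow replicates 2 and 5. Apobec1, on the same list, encodes no apolipoprotein but the enzyme that edits Apob messenger RNA, and rose by 0.70 (adjusted p = 0.00107) with its call kept in that fit (0.47, adjusted p = 0.0291). The acute phase apolipoproteins of HDL, Saa1 and Saa2, rose 7.33-fold and 7.28-fold (log2 changes 2.87 and 2.87, SE 0.303 and 0.34, limma adjusted p = 8.89e-07 and 4.16e-06). Saa1 ran from 6.58 to 7.31 in WT_chow and from 8.85 to 10.85 in KO_chow. Saa1 and Saa2 are near-identical copies, and signal of either may be read by the probes of the other. Clu, encoding apolipoprotein J, rose by 0.42 (adjusted p = 0.000763). The other of the 4, Saa3, which lies outside the naming rule and was picked after its value was seen, rose by 0.65 (adjusted p = 0.0273) and was the 1 whose call ended without those mice.

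Of 19 genes of VLDL assembly and secretion, 4 rose and 7 fell on chow, where 13.7% of all genes were called. Without KO_chow replicates 2 and 5 only Pdia3 rose and 0 fell, in a fit that called 1089 of all 24011 genes. Pdia3, a protein disulfide isomerase of the endoplasmic reticulum, rose by 0.50 (adjusted p = 0.000646). Dgat2, which makes triglyceride, fell by 0.37 (adjusted p = 0.0069), Tm6sf2, needed for lipid loading of VLDL, fell by 0.47 (adjusted p = 0.00576), and Pltp, a phospholipid transfer protein, fell by 0.81 (adjusted p = 0.00333). When KO_chow replicates 2 and 5 were left out, calls ended for Dgat2 (-0.29, adjusted p = 0.103), Tm6sf2 (-0.34, adjusted p = 0.117) and Pltp (-0.71, adjusted p = 0.0554). Besides Pdia3, the genes that rose were Cidec (0.84), Surf4 (0.28) and Sar1a (0.27), which lie outside the naming rule.

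Of 11 receptor and uptake genes, 2 fell on chow: Vldlr, a receptor for triglyceride-rich particles, by 1.00 (adjusted p = 0.00311, and 0.0604 without KO_chow replicates 2 and 5), and Mylip, which marks lipoprotein receptors for degradation, by 0.46 (adjusted p = 0.036, and 0.246 without these mice, at -0.39). With all mice, 13.7% of all genes were called on chow (7.69% higher and 6.03% lower). Without both mice 0 of the 11 were called, in a fit that called 1089 of all 24011 genes. The call for Mylip was lost in 10 of 21 alternative fits, among them those that left out 1 mouse, WT_chow replicate 2, 4 or 5 (adjusted p = 0.0862, 0.0928 and 0.0877) or KO_chow replicate 2, 3 or 5 (0.0694, 0.0549 and 0.107). Of 13 genes of HDL formation and plasma remodelling, Lpl rose by 2.01 (4.02-fold, SE 0.377, adjusted p = 0.000871) and Gpld1, which encodes a phospholipase carried on HDL, fell by 0.46 (adjusted p = 0.00214, and 0.0514 without KO_chow replicates 2 and 5). In the fit without these mice Lpl alone of the 13 was called. Lpl encodes lipoprotein lipase, a gene that macrophages express, and on chow both Lpl and the macrophage markers above rose. Lpl ran from 7.36 to 8.54 in KO_chow, but also reached 7.84 in WT_UDCA and 7.93 in KO_UDCA. The summed macrophage markers ran from 644 to 734 in WT_UDCA and from 726 to 891 in KO_UDCA. The part of macrophages in the Lpl levels was not tested.

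Over all genes, 7.69% were called higher and 6.03% lower on chow. Among 16 transcription factor genes that act on apolipoprotein genes, 0 rose and 5 fell on chow. They were Ppara, the fatty acid receptor, by 0.53 (adjusted p = 0.0194), Nr1h4, the bile acid receptor FXR, by 0.49 (adjusted p = 0.0239), Mlxipl, the carbohydrate response factor, by 0.68 (adjusted p = 0.0111), Cebpa by 0.57 (adjusted p = 0.0283) and, outside the naming rule, the clock repressor Nr1d1 by 0.75 (adjusted p = 0.0326). Without KO_chow replicates 2 and 5, 0 of the 16 were called, in a fit that called 1089 of all 24011 genes. The adjusted p was then 0.29 for Ppara, 0.312 for Nr1h4, 0.237 for Mlxipl and 0.32 for Cebpa. Single mice also ended calls: KO_chow replicate 2 or 5 and WT_chow replicate 5 for Ppara (adjusted p = 0.0564, 0.0663 and 0.0528), KO_chow replicate 2 or 5 and WT_chow replicate 1 or 5 for Nr1h4 (0.0613, 0.0805, 0.0581 and 0.0585), and KO_chow replicate 2 or 5 and WT_chow replicate 1 or 2 for Cebpa (0.0782, 0.0642, 0.0681 and 0.0548), whose change was -0.34 without KO_chow replicate 5. In the fit without these 2 mice the change of Mlxipl was -0.37, that of Ppara -0.26, that of Nr1h4 -0.25 and that of Cebpa -0.21. Hnf4a, which encodes the hepatocyte nuclear receptor HNF4A, changed by -0.04 and did not pass.

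From KO_chow to KO_UDCA 11.2% of all genes were called, 5.03% higher and 6.22% lower. The same lists showed 0 higher and 3 lower of 11 other apolipoprotein genes, with Apobec1 lower beside them. Of 19 VLDL genes 4 were higher and 3 lower, and of 11 receptor genes 2 were higher and 0 lower. Of 13 HDL and remodelling genes 4 were higher and 1 lower, and of 16 transcription factor genes 6 were higher and 0 lower. Without KO_chow replicates 2 and 5 these counts were 0 higher and 2 lower for the other apolipoprotein genes, with Apobec1 still lower, 1 higher and 1 lower for the VLDL genes, and 0 for the receptor, the HDL and remodelling and the transcription factor genes. Saa1 fell by 2.75 and Saa2 by 2.82 (limma adjusted p = 1.94e-06 and 5.56e-06), Apobec1 fell by 0.70 (adjusted p = 0.00101), Pdia3 fell by 0.47 (adjusted p = 0.00103) and Dgat2 rose by 0.47 (adjusted p = 0.000845). These 5 calls held without KO_chow replicates 2 and 5, where the change of Apobec1 was -0.46. That fit called 0 of the 10 members and 673 of all 24011 genes. Lpl fell by 1.83 (adjusted p = 0.00177) and lost its call without these mice (-1.53, adjusted p = 0.0566). In KO_UDCA against WT_UDCA 0 genes of these lists were called by limma.

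**Figure D5:**
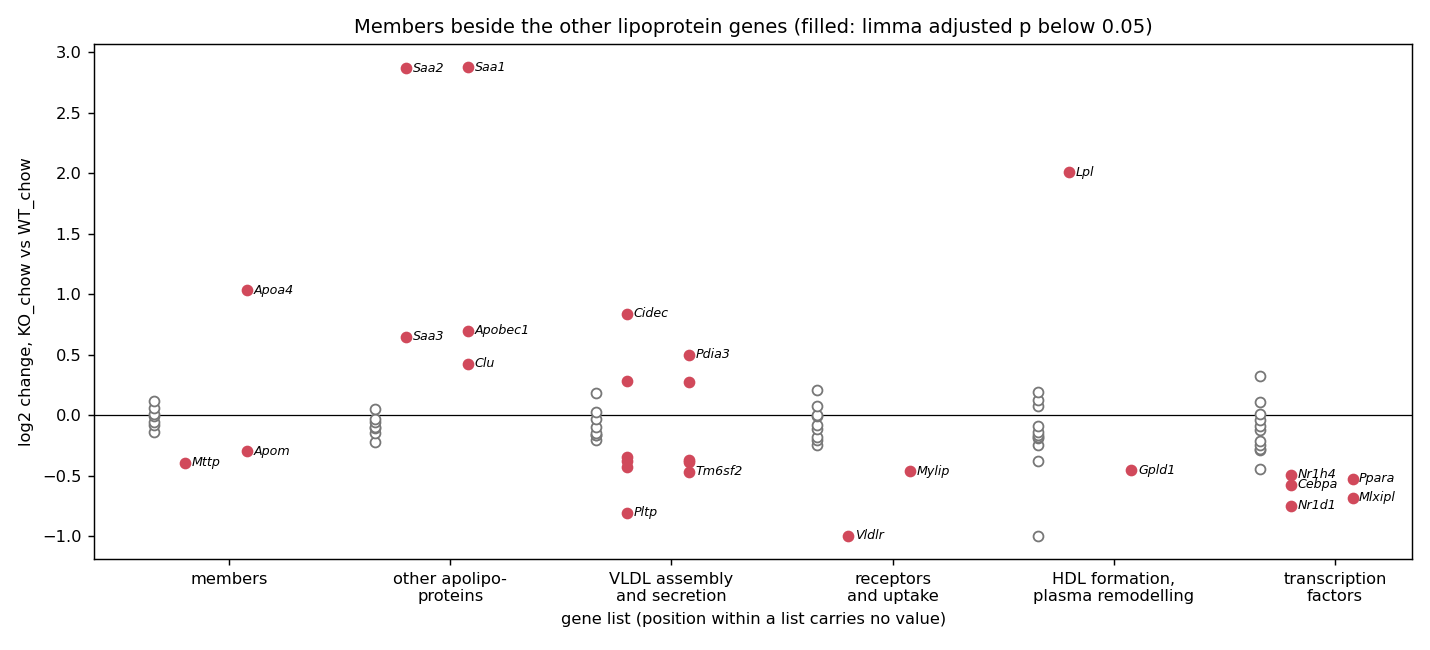
Log2 change in KO_chow against WT_chow (vertical axis) of the 10 genes (labelled members) and of 5 other lists of lipoprotein genes (horizontal axis, Apobec1 standing with the other apolipoproteins), 1 point per gene, filled where the test was passed. Apoa4 at 1.03 lies above the other 9 members, and Saa1 and Saa2 at 2.87 and Lpl at 2.01 lie above it.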

How the data were processed

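Liver RNA of 22 mice was hybridised to 22 arrays. The deposited intensity values are unlogged and, per the labels, come from RMA with a probe-level model. The submitters' processing notes give RMA no version, and the sources used here name no genome build. Of 24973 rows, 24015 had exactly 1 gene symbol in the platform annotation and 958 had none. For 4 symbols on several rows, the brightest row was kept, which left 24011 genes. RefSeq names of GRCm38.p6 matched 23922 rows and changed 0 symbols. The sources used here do not say which part of a transcript a row reads.

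Values were taken to log2 with no pseudocount and no filter. Group means of all 22 arrays were fitted by limma 3.58.1, with version 1.17.8 of data.table, under R 4.3.3. Variances were moderated and shared by the 4 groups, and two-sided p-values were adjusted by Benjamini-Hochberg over 24011 genes, in 6 comparisons, and the code was tested on simulated data. KO_chow was the most variable group by median SD, so the shared variance can make its p-values too small. Precision is limited by the number of arrays.

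The members and lists were chosen with earlier results of these data known. All 10 members are named. Of each other list at most 4 genes called on chow or from KO_chow to KO_UDCA are named, by smallest p, with Cyp2c70 and the 3 genes most like each member in Pearson's r (predicted genes, Rik clones and small RNAs left out). Of 157 list genes, 14 were not analysed here. Outliers were sought with Dixon's test. Alternatives were a fit to only the groups compared, other normalizations, variance models, array weights, a filter on dim genes (mean log2 above the median of all genes), log2(intensity + 16), a block for the runs of title numbers, and leaving out arrays. Title numbers run once through the 4 groups from 1 to 15 and again from 16 to 22. The labels do not call these runs a batch. The fits within a run, the ratios of Apoa4 to its neighbours and the list counts without KO_chow replicates 2 and 5 were chosen after seeing the data.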

Additional observations from a re-analysis of the deposited data

Results flagged for a closer look

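Apoa4 differed between the genotypes in its response to UDCA: the diet effect in knockout mice minus that in wild type mice was -0.969 by the interaction test (limma adjusted p = 0.0234). Among the other lipoprotein genes the same difference passed the test for Saa1 (-3.006), Saa2 (-2.94), Lpl (-2.032) and Pdia3 (-0.573). For Lpl the call was lost in 16 of 32 alternative fits, with an adjusted p up to 0.359. For Pdia3 it was lost in 3, among them the fit without KO_chow replicates 2 and 5 (adjusted p = 0.0547), and for Saa2 in 1, the fit to title numbers 1 to 15 (adjusted p = 0.105).

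In 2 of the 40 sets of member values within a group, 1 mouse stood apart from the rest by Dixon's test, and chance alone gives about 1 in 20. Apoa1 measured 10.68 in WT_UDCA replicate 3, against 10.80 to 10.85 in the other WT_UDCA mice. Apob measured 12.6 in KO_chow replicate 2, against 12.66 to 12.69 in the other KO_chow mice.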

How the results depend on the processing

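Of 1420 member changes in alternative fits, 1383 kept their call, 28 lost it, 9 gained it and 0 called changes reversed. Uncalled changes turned sign in 87 cases. The 3 calls on chow became 1 in the fit to only the groups compared and without KO_chow replicates 2 and 5. The 3 calls from KO_chow to KO_UDCA became 1 and 0 in these fits and 5 with log2(intensity + 16), and the 1 interaction call became 2 with the filter on dim genes. In title numbers 1 to 15 these counts were 1, 0 and 0. In title numbers 16 to 22, where KO_chow and KO_UDCA have 1 mouse each that is assumed to vary like the other groups, they were 1 and 1 on chow and from KO_chow to KO_UDCA. Within those runs the log2 changes on chow were 0.77 and 1.91 for Apoa4, -0.29 and -0.69 for Mttp (adjusted p = 0.204 and 0.16) and -0.30 and -0.38 for Apom (0.158 and 0.311). From KO_chow to KO_UDCA they were -0.33 and -1.51 for Apoa4 (0.179 and 0.0268), 0.38 and 0.64 for Mttp (0.0656 and 0.294) and 0.29 and 0.46 for Apom (0.119 and 0.335).

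Over all genes, the fit to only the groups compared called 2008 on chow, 1454 from KO_chow to KO_UDCA, 2 in KO_UDCA against WT_UDCA and 1 in WT_UDCA against WT_chow. Without KO_chow replicates 2 and 5, 1089, 673 and (interaction) 207 were called. In title numbers 1 to 15 the counts were 1055, 866, 1 (KO_UDCA against WT_UDCA) and 38 (interaction), and in 16 to 22 they were 1011, 514, 0, 0 (KO_UDCA against WT_chow) and 209. KO_UDCA against WT_chow had 10 calls with trended robust variances and 13 with array weights, and the block for the runs left 1 in KO_UDCA against WT_UDCA. Leaving out 1 array at a time gave 2219 to 3849 on chow (1 to 3 members), 1632 to 3201 from KO_chow to KO_UDCA (2 to 4 members), 1 to 4 and 3 to 10 for KO_UDCA against WT_UDCA and against WT_chow, 0 to 1 for WT_UDCA against WT_chow, and 301 to 1219 for the interaction (1 to 2 members). No paired analysis was possible because the labels give the mice no replicate numbers that recur in the groups. Apart from fewer arrays or genes tested, the cause of these differences was not tested.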
